A study of Mus musculus with 22 samples.

Results

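S100a8, S100a9, Chil4, Lcn2 and Defb4 are 5 of the 17541 genes listed in the deposited count tables of mouse esophageal epithelium, and they encode alarmins and antimicrobial proteins. They were picked by name with their levels in the 3 conditions already known. Those levels and the fold changes between conditions are therefore given as a description, without a test. All 5 genes were found in the tables of every condition.

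The study profiled peeled esophageal epithelium of C57BL6 mice by inDrop single cell RNA sequencing, a droplet method that tags all transcripts of a cell with its barcode and each transcript with its own identifier (UMI, the unit counted here). The 6 control mice were untreated, with mice 1, 2 and 6 aged 3 to 4 months (young) and mice 3, 4 and 5 aged 18 to 20 months (old). The 4 mice with eosinophilic esophagitis (EoE) were sensitized on the skin with the vitamin D analog MC903 and ovalbumin (OVA) for 12 days, then challenged with OVA from day 15 to day 32. EoE mice 9 and 10 were 6 to 8 weeks old (young), and mice 11 and 12 were 19 to 20 months old (old). The 3 mice with esophageal squamous cell carcinoma (ESCC), named 8M, 17F and 17M and aged 8 to 10 months, drank the carcinogen 4NQO at 100 µg/ml for 16 weeks and were kept for 8 weeks without it. The ESCC mice shared neither age class of the other groups, so age and 4NQO cannot be told apart in them.

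S100a8 and S100a9 are small calcium-binding proteins that pair as calprotectin, which starves microbes of metal ions and, once released, alerts the immune system. Neutrophils hold large amounts of it, and stratified epithelia are known to switch it on when they are wounded or inflamed. Lcn2 binds the iron carriers of bacteria, Defb4 is a beta-defensin that acts on microbes directly, and Chil4 is a chitinase-like lectin best known from type 2 inflammation. Signals of the IL-17, IL-22 and NF-kB pathways are known to induce calprotectin, Lcn2 and beta-defensins in epithelial cells, and IL-4 and IL-13 are known to induce Chil4.

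S100a8 (ENSMUSG00000056054, plus strand, chr3:90668978-90670035) and S100a9 (ENSMUSG00000056071, minus strand, chr3:90692632-90695721) are neighbors in the GRCm38 assembly. Chil4 (ENSMUSG00000063779, minus strand, chr3:106201490-106219507) lies on the same chromosome beside its relative Chil3 (chr3:106147554-106167564), Lcn2 (ENSMUSG00000026822, minus strand) at chr2:32384633-32388252 and Defb4 (ENSMUSG00000059230, plus strand) at chr8:19198706-19201545. The promoters of the 4 genes with a higher pooled level in ESCC are shown because calprotectin is known to answer to C/EBP, NF-kB and STAT factors. Each line gives the longest stretch, within the 250 bases before the RefSeq start (GRCm38.p6), that lies outside every annotated exon of the gene, 5′ to 3′ on the strand of the gene. Capitals mark a motif match.
S100a8, chr3:90668821-90668977, plus strand: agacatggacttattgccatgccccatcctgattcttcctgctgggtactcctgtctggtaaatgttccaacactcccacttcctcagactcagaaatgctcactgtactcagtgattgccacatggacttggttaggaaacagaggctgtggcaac
S100a9, chr3:90695722-90695971, minus strand: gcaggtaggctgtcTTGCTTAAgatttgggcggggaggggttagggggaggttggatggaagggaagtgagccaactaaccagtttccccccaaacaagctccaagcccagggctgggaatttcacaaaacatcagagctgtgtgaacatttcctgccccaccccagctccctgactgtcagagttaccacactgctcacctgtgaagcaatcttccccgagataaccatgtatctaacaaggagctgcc
Chil4, chr3:106219508-106219729, minus strand: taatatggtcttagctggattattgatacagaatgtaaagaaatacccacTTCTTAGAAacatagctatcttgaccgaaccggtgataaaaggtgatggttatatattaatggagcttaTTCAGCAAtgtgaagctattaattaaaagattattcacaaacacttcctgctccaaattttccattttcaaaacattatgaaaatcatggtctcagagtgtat
Lcn2, chr2:32387798-32387850, minus strand: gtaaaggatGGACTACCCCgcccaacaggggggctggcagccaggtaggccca
The motifs searched on both strands over all 250 bases were NF-kB (GGG, any 5 bases, CC), C/EBP (TTGCNNAA), AP-1 (TGANTCA), STAT3 (TTCNNNGAA) and STAT6 (TTC, any 4 bases, GAA), which 45.8%, 9.56%, 6.75%, 7.02% and 5.85% of 32851 promoters of this length hold. S100a9 had a C/EBP match 236 to 229 bases before its start, Chil4 a C/EBP match at 131 to 124 and a STAT3 match at 200 to 192, and Lcn2 an NF-kB match at 102 to 93. Lcn2 also had a C/EBP match at 216 to 209 and a STAT6 match at 156 to 147, both outside the stretch shown. S100a8 had 0 matches, and no match overlapped another. These are letters found in a window and not measured binding.

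A level is given as the UMIs of a gene per 1000000 UMIs of that mouse (CPM). The tables held 1500 cells per condition, of which 1493 control, 143 EoE and 1473 ESCC cells lay within the limits of the study on genes and UMIs and were not called non-epithelial. Of the deposited EoE cells, 9.6% were within those limits. In the cells used, a control mouse held 111043 to 427752 UMIs, an EoE mouse 6245 to 41909 and an ESCC mouse 1240388 to 2105104, so depth moved with the condition. EoE mouse 11 kept 11 cells and control mouse 3 kept 70. Both libraries of a mouse shared 239 cell barcodes over the 9 mice with 2 libraries, 4 to 52 per mouse, and 43 barcodes were shared between mice. The paired profiles of a shared barcode resembled each other (median r 0.623 to 0.862) more than other pairs (0.244 to 0.451), so such a barcode was counted as 1 cell wherever cells are counted. Basal markers such as Krt5 and Krt14 (1726 to 28665 CPM) and differentiation markers such as Krt13 and Krtdap (14841 to 168455 CPM) were present in all 13 mice. Fewer cells that carry a gene and fewer transcripts per cell cannot be told apart in such a level.

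In the cells used, the measured levels of S100a8, S100a9, Chil4 and Lcn2 were higher in every ESCC mouse than in every control. That of Defb4 was higher in every EoE mouse than in every control. The share of all genes that separate the mice in this way is not given here, so how unusual this is cannot be read. A level of 3 UMIs, the floor used here, corresponded to 7.01 to 27.0 CPM in a control mouse. For S100a8, S100a9 and Lcn2 in ESCC mouse 8M (20.2, 8.87 and 1.61 CPM), this depth cannot show a difference from every single control, and for Lcn2 from any of them. With all deposited cells, EoE mice 11 and 12 (97.4 and 153 CPM of Defb4) were no longer above every control. For background, 34.5% of the 5867 genes tested passed an adjusted p of 0.05 in ESCC against control (18% higher and 16.6% lower) and 34.7% in EoE against control (9.41% higher and 25.3% lower). Since these contrasts chose the 5 genes, nothing is read from their counts, and 2 of the 5, Chil4 and Defb4, passed the filter on low counts of this fit. With the size factors of DESeq2 in place of TMM the ESCC calls split into 1315 higher and 760 lower, against 1055 and 971 with TMM, and the median log2 difference of all genes moved from 0.01 to 0.12. The EoE median moved from -0.75 to -0.97, so single genes there are read against a median well below 0.

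S100a8 was found at 1500 CPM in ESCC mouse 17F (2605 UMIs), at 1719 CPM in 17M (3618 UMIs) and at 20.2 CPM in 8M (25 UMIs). Among controls it had 1 UMI, in mouse 1 (2.48 CPM), and 0 in the other 5 mice. No EoE mouse had a UMI, at a depth where 3 UMIs over the group would be 30.6 CPM. Transcripts of this calprotectin subunit were thus abundant in 17F and 17M and far scarcer in 8M, whose level was still above the one measured in each control. The pooled ESCC level was 2145 times the control level (95% counting interval 385 to 84723), a ratio that rests on 1 control UMI. Counting intervals cover counting error alone. Without control mouse 1 it was at least 550-fold higher, and without ESCC mouse 8M the ratio was 2826. Mouse 8M alone stood at 35.2 times control (5.76 to 1444), and 1 of its cells held 12 of its 25 UMIs.

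S100a9, the other subunit, followed the same order. Its level was 1284 CPM in 17F (2230 UMIs), 1691 CPM in 17M (3560 UMIs) and 8.87 CPM in 8M (11 UMIs). In controls 2 UMIs were counted, both in mouse 6 (6.30 CPM), and EoE mice had 0. The lowest ESCC mouse and the highest control mouse were thus close, while 17F and 17M stood far above both. The pooled ratio of ESCC to control was 996 (275 to 8223), and it was at least 543 without control mouse 6. For 8M alone the ratio was 7.74 (1.69 to 71.8).

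**Figure D1:**
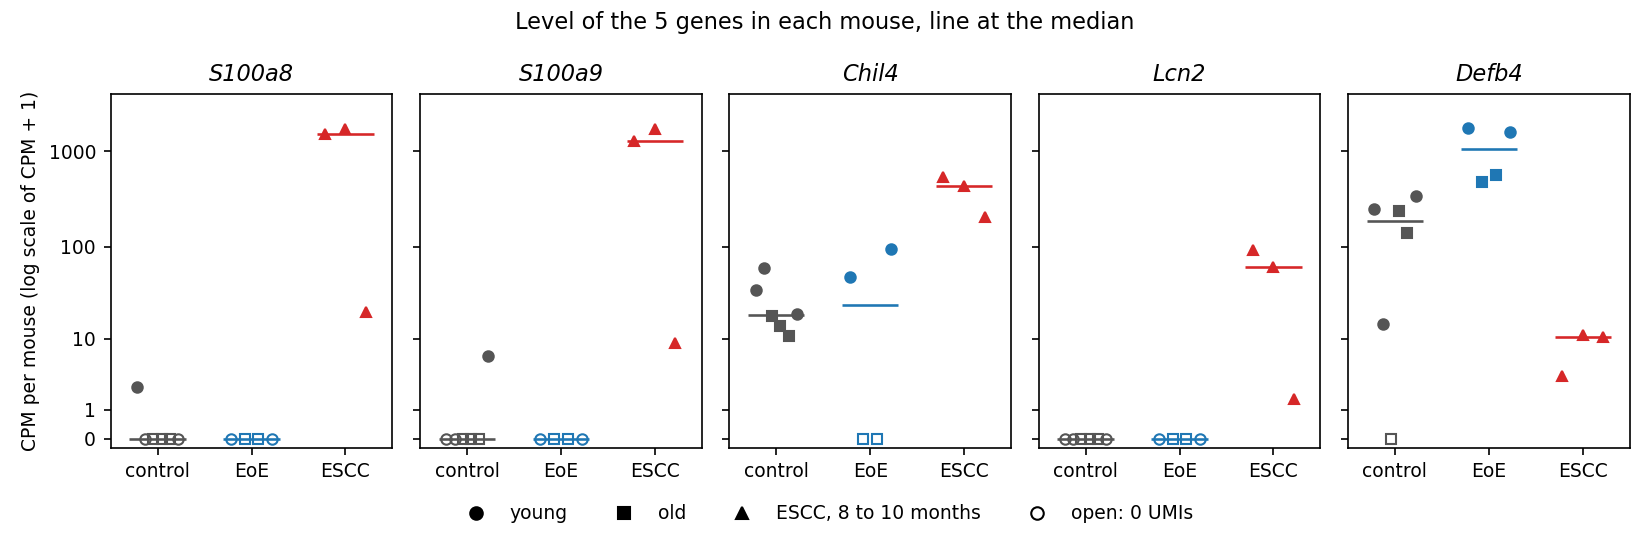
Level of each gene in every mouse, in CPM on a log scale of CPM + 1, with 1 point per mouse and a line at the group median. Filled circles are young mice, squares old mice and triangles ESCC mice, and open symbols are mice with 0 UMIs. S100a8, S100a9 and Lcn2 are near 0 in control and high in 2 of the 3 ESCC mice. In EoE they have 0 UMIs, at a floor of 71.6 to 480 CPM per mouse. Chil4 is high in all 3 ESCC mice, and Defb4 is highest in EoE and lowest in ESCC.

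The low value of 8M was found in both of its libraries, at 24.6 and 16.8 CPM for S100a8, against 1572 and 1424 in 17F and 1682 and 1747 in 17M. Few other genes split the ESCC mice in this way. Of 3200 genes with at least 50 CPM in both 17F and 17M, 9 were at least 10 times lower in 8M. These were S100a9 (145 times), Sprr2d (96.4), S100a8 (74.4), Tnfaip2 (25.5), Lcn2 (25.1), Cstdc5 (21.4), Krt16 (17.2), Pi15 (12.5) and Lgi2 (12.4). Sprr2d encodes a cornified envelope protein and Krt16 a keratin of wounded epithelium. In the reverse direction, 2 of 3374 genes were at least 10 times lower in 17F and 17M than in 8M. These genes were singled out after their values were seen, and the split is described here without a test.

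The cells that carry S100a8 and S100a9 were compared at an equal depth, by thinning each cell to 500 UMIs, which left out 31 control, 69 EoE and 0 ESCC cells as too shallow. S100a8 was then found in 350 of 1357 ESCC cells (25.8%, 95% Wilson interval 23.5 to 28.2). By mouse the share was 27.8% in 17F, 36.3% in 17M and 1.02% in 8M. At this depth no control cell of 1341 held an S100a8 UMI, and a limit of 3 cells then allows a share of cells with a UMI of up to 0.224%. No EoE cell of 74 held one, which allows up to 4.05%. Carriers were thus common in 17F and 17M, and EoE was too shallow to show a share below a few percent. S100a9 was found in 21.7% of ESCC cells (19.6 to 23.9), with 118 cells in 17F, 175 in 17M and 1 in 8M. Without thinning, 50.4% of ESCC cells held S100a8 and 44.4% held S100a9, against 0.0729% and 0.146% of control cells. Among the 20 ESCC cells called non-epithelial, 1 held a UMI of each (5%, 0.888 to 23.6), at a median depth of 2071 UMIs against 3111 in the cells used. These cells were picked for holding fewer epithelial than non-epithelial marker UMIs, so they set no limit on what free RNA could contribute.

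Within a mouse the transcripts were concentrated in few cells. The 10% of cells richest in S100a8 held 57.7% of its UMIs in 17F and 54.8% in 17M, and the richest cell held 87 and 94 UMIs. For S100a9 the corresponding shares were 63.7% and 62.5%. Cells that held one subunit often held the other. At 500 UMIs, 190 cells held both, which is 54.3% of S100a8 carriers and 64.6% of S100a9 carriers. If carriers of each were spread independently within each mouse, 96.3 such cells would be found. Across cells, Pearson's r between their log levels was 0.82 in 17F (461 cells), 0.75 in 17M (603 cells) and 0.47 in 8M (293 cells). These cells share libraries and their depth, so r is a description. In 8M, 282 of the 293 cells held neither gene, so its r rests on few cells.

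**Figure D2:**
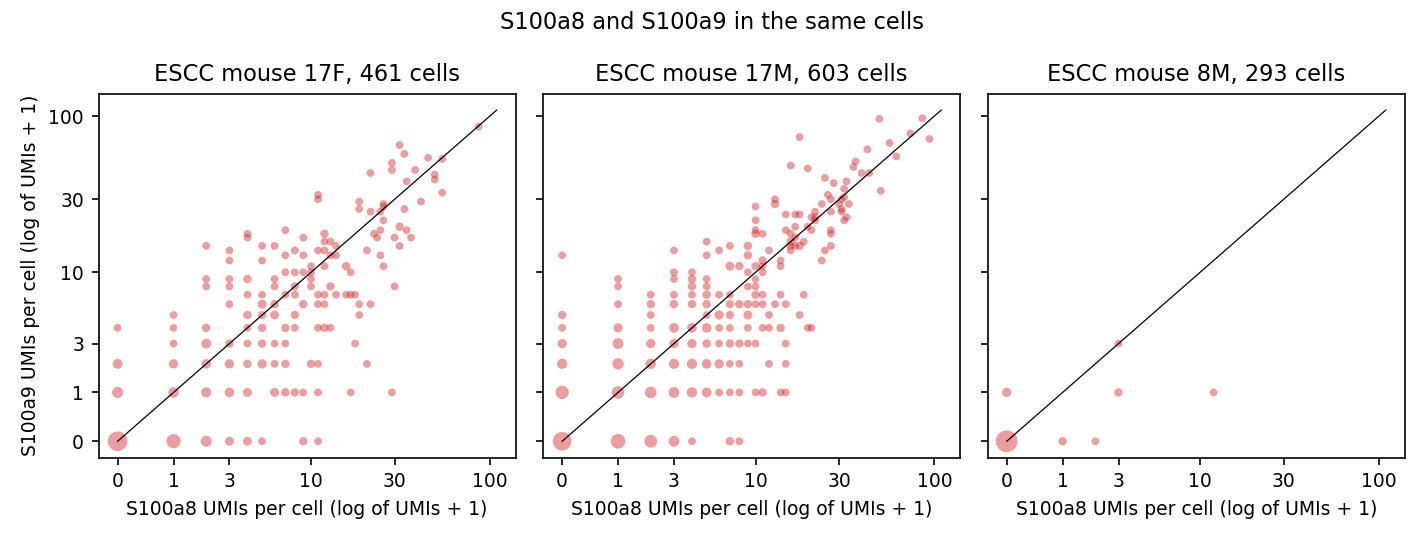
S100a8 (x axis) and S100a9 (y axis) UMIs per cell in the 3 ESCC mice, both on a log scale of UMIs + 1, with larger points for more cells and a line where both are equal. In 17F and 17M the cells lie along the line up to 87 and 94 UMIs of S100a8, while in 8M nearly all cells lie at 0.

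Genes were ranked by their likeness to S100a8 among 6357 with a UMI in at least 5% of the cells of each ESCC mouse. The most alike were Krt6b (mean r 0.45 over the 3 mice), Krtdap (0.39), Fabp5 (0.36), Krt16 (0.36) and Serpinb3a (0.35). This filter left out genes with few carriers in 8M, S100a9 among them (mean r 0.68 with S100a8). For S100a9 the most alike were Krt6b (0.47), Krtdap (0.41), Fabp5 (0.39), Serpinb3a (0.39) and Krt6a (0.36). Krt6a, Krt6b and Krt16 are keratins that stratified epithelia make on injury, and Krtdap and Fabp5 belong to differentiating keratinocytes. Krt6b itself stood at 3674 CPM in 17F, 5832 in 17M and 1119 in 8M, against 4.91 to 81.0 in controls. Carriers of S100a8 at 500 UMIs gave 1.67% of their UMIs to stress keratins in 17F and 2.30% in 17M, against 0.622% and 0.699% in the other cells of these mice. Their share on differentiation markers was 1.94% and 2.34%, against 1.09% and 0.985%, and their share on cycling markers was lower, at 0.0766% and 0.0913% against 0.136% and 0.119%. These are the values of 2 mice and are given without a test, since 8M had 3 carriers at this depth.

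The ESCC cells were grouped into 5 clusters from genes other than the 5 described here. Cluster 1 (454 cells, led by Plk1, Cdk1 and Nusap1) was cycling-like and cluster 5 (74 cells, led by Sprr3, Aldh1a7 and Ly6g6c) superficial-like. Clusters 2 (365 cells, led by Sostdc1), 3 (285 cells) and 4 (179 cells, led by Ifi27l2a) were left unnamed. Cluster 3 was led by the antigen presentation genes H2-Aa and Cd74 together with Sprr2i, Krt16 and Krt6b, and stress keratins took 2.75% of its UMIs against 0.531% in the other clusters. It held 107 cells of 17F, 167 of 17M and 11 of 8M, whereas 142 cells of cluster 4 and 56 of cluster 5 came from 8M, so clusters and mice overlap.

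S100a8 was highest in cluster 3, at 3220 CPM in 17F and 3178 CPM in 17M. Its level was 1011 and 1092 CPM in the cycling-like cluster 1 and 927 and 996 CPM in cluster 2. Carriers were not confined to it, since 56.4% of the cluster 1 cells of 17F held an S100a8 UMI, against 81.3% of its cluster 3 cells. Cluster 3 contributed 55.9% of the S100a8 UMIs of 17F and 57.5% of those of 17M, and 65.8% and 64.8% of the S100a9 UMIs. In 8M the 11 cells of cluster 3 held 15 S100a8 UMIs, which is 320 CPM. Most of these came from 1 cell with 12 UMIs, so this is hardly a level of the cluster. The balance of the subunits was also read by cluster. In cluster 3 there were 0.975 S100a8 UMIs per S100a9 UMI in 17F (95% counting interval 0.904 to 1.05) and 0.897 in 17M (0.843 to 0.955). In cluster 1 the ratio was 1.39 (1.24 to 1.57) and 1.24 (1.12 to 1.37), and in cluster 2 it was 1.72 (1.45 to 2.05) and 1.20 (1.06 to 1.36). The interval of cluster 3 thus lay below those of clusters 1 and 2 in both mice, but these intervals treat each UMI as independent although a single cell held up to 94 of them, so no difference is read from them. Which cluster was highest depended on the clustering. In the 5 clusters the superficial-like cluster 5 was low in S100a8, at 189 CPM in 17F (17 cells). In a coarser grouping into 3 clusters, and again with library means removed, the highest was a cluster of 168 cells led by Serpinb12 and Slpi, genes of differentiated epithelium. With 7 clusters it was a cluster of 127 cells led by H2-Aa, Cd74 and Lyz2, which are genes of antigen presenting cells and macrophages. Sprr2i, Sprr2e and Serpinb3a were also among the genes that led this cluster. Stress keratins took 3.84% of its UMIs and differentiation markers 4.28%, against 0.0457% for macrophage and 0.0425% for pan-immune markers.

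**Figure D3:**
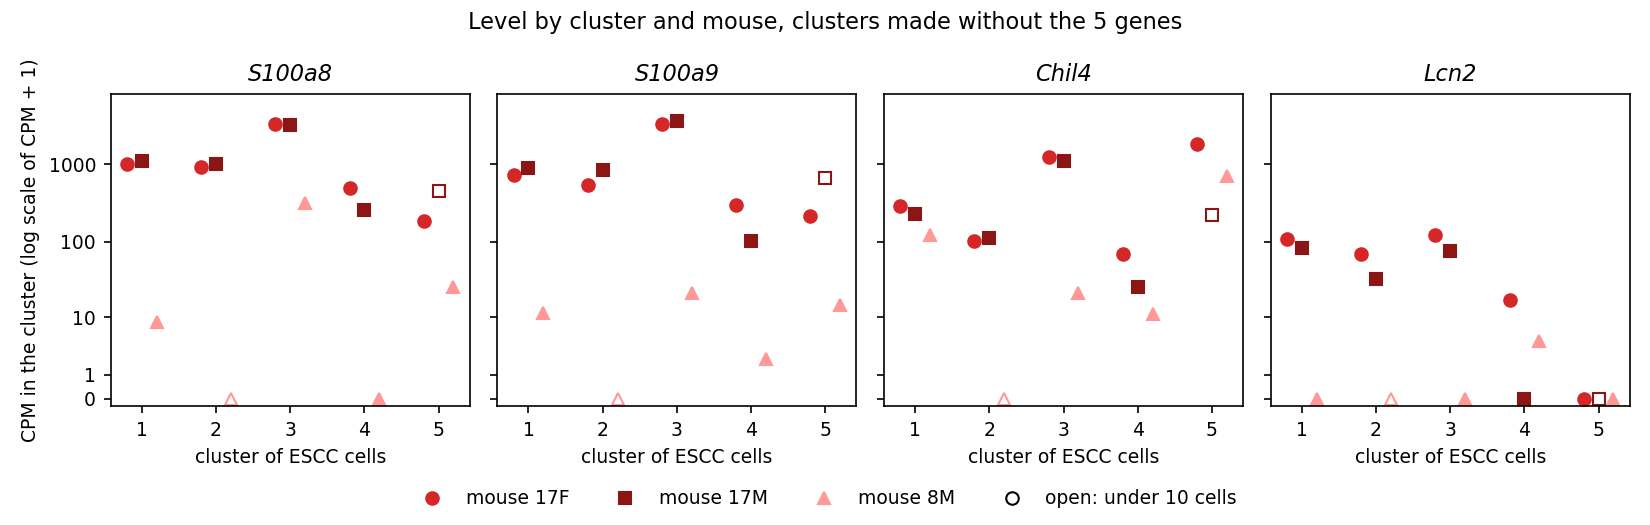
Level of S100a8, S100a9, Chil4 and Lcn2 in the 5 clusters of ESCC cells, in CPM on a log scale of CPM + 1, with 1 symbol per mouse and open symbols for under 10 cells. S100a8 and S100a9 peak in cluster 3 in 17F and 17M, Chil4 is highest in clusters 3 and 5, and Lcn2 lies between 32.5 and 123 CPM in clusters 1 to 3 of 17F and 17M.

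Calprotectin is abundant in neutrophils, so immune markers were read beside these levels. The summed level of 7 pan-immune markers was 50.1 to 77.0 CPM in ESCC, 0 to 4.91 in control and 0 in EoE, and that of 9 macrophage markers was 52.4 to 72.6, 0 to 34.4 and 0. The neutrophil list (13 genes, 9 listed) gave 58.4 to 334 CPM in ESCC, 147 to 243 in control and 0 to 160 in EoE. Nearly all of it was Il1r2, with 674 UMIs in ESCC and 330 in control, a gene also among those that led cluster 4 (461 against 89.3 CPM), so the sum of this list is no measure of neutrophils here. Of the other genes of this list, Ltf had 41 UMIs in ESCC, Hdc 4, Csf3r 3, Cxcr2 3 and Mmp8 2, and Mpo, Retnlg and Mmp9 had 0. Cxcr2 had 11 UMIs in control. Ngp, Camp, Elane and Ly6g were not among the genes listed. Whether neutrophils were present was not tested. In S100a8 carriers pan-immune markers were at 63.9 against 28.1 CPM in the other cells of 17F and at 75.1 against 95.0 CPM in 17M. Macrophage markers were at 79.9 against 16.5 CPM in the S100a8 carriers of 17F and at 68.2 against 76.8 CPM in those of 17M. In S100a9 carriers they were higher in both mice, at 88.0 against 16.7 CPM and 76.8 against 56.6 CPM. Cluster 3 held more of both lists than the other clusters, at 0.0210% against 0.00190% of its UMIs for pan-immune and 0.0227% against 0.00204% for macrophage markers. Without every cell that held an immune marker UMI, the ratio of ESCC to control was 2007 for S100a8 and 950 for S100a9, nearly as large as with them.

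Chil4, the chitinase-like lectin, was higher in all 3 ESCC mice than in every control. Its level was 538 CPM in 17F (935 UMIs), 432 CPM in 17M (910 UMIs) and 206 CPM in 8M (255 UMIs). The 6 controls lay between 10.6 and 58.9 CPM with a median of 18.5, from 43 UMIs in all. The groups did not overlap, and the level of 8M was the lowest of the 3. The pooled ratio of ESCC to control was 16.8 (12.4 to 23.2), with 21.8 in 17F, 17.5 in 17M and 8.34 in 8M. On the log2 scale of the edgeR fit the difference was 4.15 (SE 0.30). Of the 31-base sequences at the transcript end of Chil4, where its reads lie, 3.33% also occur in its neighbor Chil3.

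In EoE, Chil4 rested on 5 UMIs. Young mouse 9 had 3 of them (94.2 CPM), young mouse 10 had 2 (47.7 CPM) and the old mice 11 and 12 had 0. The ratio to control was 2.07 (0.640 to 5.22), an interval that includes 1, and the fitted log2 difference of 0.85 (SE 0.93) became -0.0076 without mouse 9. At this depth no direction can be read for Chil4 in EoE.

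Chil4 was carried by fewer cells than S100a8. At 500 UMIs it was found in 101 of 1357 ESCC cells (7.44%), with 43 in 17F, 51 in 17M and 7 in 8M, against 8 of 1341 control cells (0.597%) and 2 of 74 EoE cells (2.70%). The 10% of cells richest in it held 92.9% of its UMIs in 17F, 90.7% in 17M and 100% in 8M, where single cells reached 109, 91 and 83 UMIs. A few cells thus set the level of a mouse, and its 2 libraries could differ, at 354 and 95.4 CPM in 8M and at 677 and 391 CPM in 17F. Of the 101 carriers, 61 also held S100a8 (60.4%), against 30.5 if both were spread independently within each mouse. The genes most like Chil4 were Gsdmc (mean r 0.38), Krt4 (0.35), Krt13 (0.34), Serpinb12 (0.34) and Krt6b (0.34), among which Krt4 and Krt13 are the keratins of differentiated esophageal epithelium. Differentiation markers took 3.19%, 3.74% and 6.74% of the UMIs of carriers in 17F, 17M and 8M, against 1.13%, 1.27% and 2.09% in the other cells. Basal markers were lower in carriers in 3 of 3 mice. By cluster, Chil4 was at 1213 and 1108 CPM in cluster 3 of 17F and 17M, and in the superficial-like cluster 5 at 1792 CPM in 17F (17 cells) and 706 CPM in 8M, where that cluster gave 80.2% of its UMIs.

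Lcn2, the lipocalin that binds bacterial iron carriers, had UMIs in ESCC and in neither other condition. It reached 92.1 CPM in 17F (160 UMIs), 60.8 CPM in 17M (128 UMIs) and 1.61 CPM in 8M (2 UMIs), and it had 0 UMIs in every control and EoE mouse. As with calprotectin, 17F and 17M were high, and 8M, under its floor of 2.42 CPM, could not be told from the controls. Against a floor of 3 UMIs over the control group (1.72 CPM), the pooled ESCC level was at least 33.2-fold higher, with at least 53.6-fold in 17F and 35.4-fold in 17M. The EoE floor of 30.6 CPM, taken over all 4 mice together, lies under the levels of 17F and 17M, and the depth of EoE cannot show a level below it. In single EoE mice the floor was 71.6 to 480 CPM, above the level of 17M in each. Without cells that held an immune marker UMI the bound was 27.9-fold.

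At 500 UMIs, 36 ESCC cells held Lcn2 (2.65%, 1.92 to 3.65), 19 in 17F, 17 in 17M and 0 in 8M. Single cells reached 11 and 10 UMIs, far fewer than for Chil4. Of these 36 cells, 21 also held S100a8, against 11.4 if independent within each mouse, and 2 held Chil4, against 3.21. Its carriers gave 1.58% and 1.84% of their UMIs to stress keratins in 17F and 17M, against 0.884% and 1.27% in other cells. Their differentiation share was nearly that of the other cells, at 1.44% against 1.32% and 1.46% against 1.48%. No cluster stood out for Lcn2. It was at 108 and 83.2 CPM in the cycling-like cluster 1, which gave 47.4% and 50% of its UMIs, at 123 and 76.1 CPM in cluster 3, and at 69.5 and 32.5 CPM in cluster 2. With 7 clusters, Lcn2 in 17M was highest in a cluster led by Cdc6, at 150 CPM (66 cells, 2.47 times the level of all cells). In 17F it was then highest in another cluster, led by H2-Aa, at 142 CPM (50 cells, 1.54 times). The genes most like it, led by Gk (mean r 0.19) and Urah (0.17), were only weakly correlated with it.

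**Figure D4:**
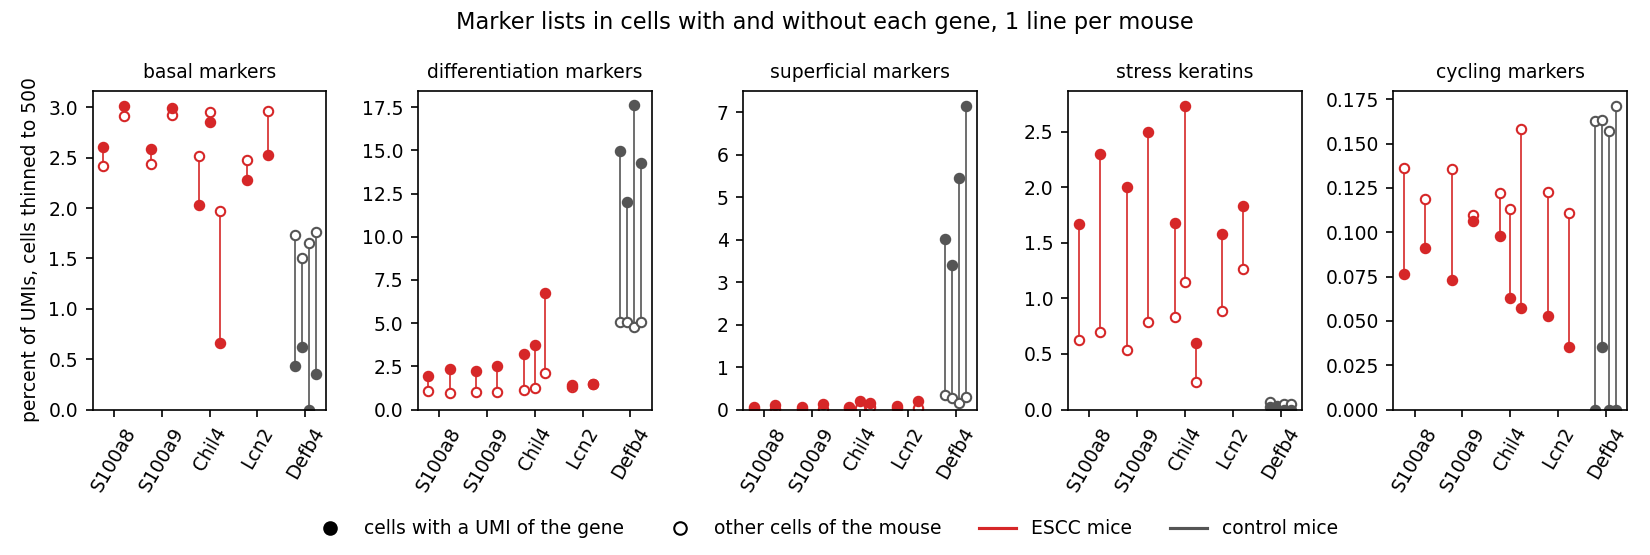
Share of UMIs on 5 marker lists in cells that hold a UMI of each gene (filled) and in the other cells of the same mouse (open), all thinned to 500 UMIs, with 1 line per mouse, ESCC in red and control in gray. Carriers of S100a8, S100a9 and Chil4 lie above the other cells for differentiation markers and stress keratins, and control carriers of Defb4 lie above them for differentiation and superficial markers and below them for basal and cycling markers.

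Defb4, the beta-defensin, had the highest levels in EoE and the lowest in ESCC. In EoE it stood at 1569 CPM in mouse 9 (50 UMIs), 1742 in mouse 10 (73 UMIs), 480 in mouse 11 (3 UMIs, 95% counting interval 99.1 to 1404) and 557 in mouse 12 (10 UMIs). Controls 1 to 6 had 246, 14.7, 0, 234, 138 and 343 CPM, with a median of 186. In ESCC it was 3.45 CPM in 17F (6 UMIs), 10.9 in 17M (23 UMIs) and 10.5 in 8M (13 UMIs). In the cells used, every EoE mouse thus lay above every control and every ESCC mouse. All ESCC mice lay below 5 of the 6 controls, control mouse 3 having 0 UMIs among 111043. Control mouse 2 rested on 3 UMIs (3.04 to 43.0 CPM), an interval that covers the level of each ESCC mouse, so this depth does not separate them. The pooled ratio to control was 6.92 in EoE (5.63 to 8.46) and 0.0412 in ESCC (0.0292 to 0.0568). In the edgeR fit the log2 difference was 2.63 (SE 0.46) for EoE and -4.24 (SE 0.57) for ESCC. With all deposited cells the EoE value was 1.52, and the groups overlapped, since mice 11 and 12 (97.4 and 153 CPM) lay below controls 1, 4 and 6 (245, 234 and 343 CPM). The young EoE mice had the higher levels, but a comparison of 2 against 2 mice cannot go below an exact p of 0.333.

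At 500 UMIs, Defb4 was found in 18 of 74 EoE cells (24.3%, 16.0 to 35.2), in 56 of 1341 control cells (4.18%, 3.23 to 5.38) and in 6 of 1357 ESCC cells (0.442%, 0.203 to 0.961). At 1000 UMIs, which 23 EoE cells reached, 17 of them held it (73.9%, 53.5 to 87.5), against 6.35% of control cells and 0.590% of ESCC cells, so the share in EoE depends strongly on the depth chosen. It was held by few cells of a control. The richest 10% held at least 97.9% of its UMIs in controls 1, 4, 5 and 6, and 1 cell of mouse 6 held 49 UMIs. In the EoE mice 10 and 9 the richest 10% held 76.7% and 92%.

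The conditions differ in how many differentiated cells they hold, so Defb4 was also read in cells with more Krtdap than Krt5 UMIs, which made up 20 to 40.2% of the cells of a control, 54.4 to 72.7% in EoE and 7.18 to 16.3% in ESCC. Krt5 marks basal and Krtdap differentiating cells. In Krtdap-dominant cells Defb4 was at 0 to 687 CPM in controls (median 386), at 1921, 2322, 635 and 759 CPM in EoE mice 9, 10, 11 and 12, and at 36.9 to 52.1 CPM in ESCC. The lowest EoE mouse then fell below the highest control. In Krt5-dominant cells there were 12 Defb4 UMIs in 921 control cells, 16 in 1334 ESCC cells and 0 in 22 EoE cells. The log2 difference from control in Krtdap-dominant cells was 1.80 for EoE and -2.97 for ESCC. In the same cells of ESCC, S100a8 was at 76.2 to 6263 CPM and Chil4 at 814 to 2499 CPM, above the 6.10 to 1257 CPM and 52.9 to 371 CPM of Krt5-dominant cells, while Lcn2 was at 0 to 86.0 and 2.03 to 92.9 CPM.

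**Figure D5:**
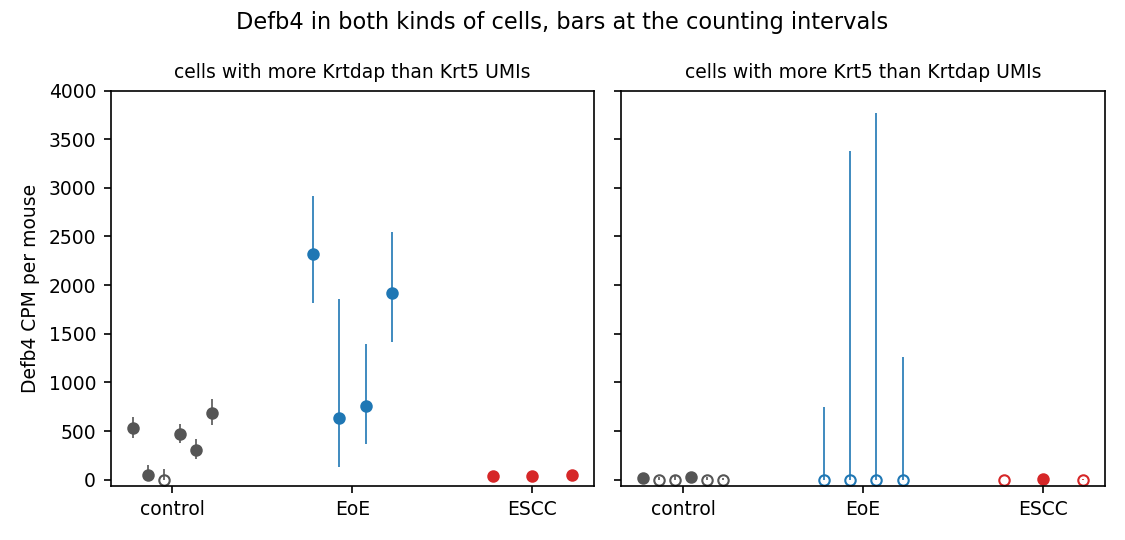
Defb4 level in CPM (linear axis) in each mouse, in cells with more Krtdap than Krt5 UMIs (left) and the reverse (right), with 95% counting intervals as bars and open points for 0 UMIs. In Krtdap-dominant cells EoE mice reach 635 to 2322 CPM, controls 0 to 687 and ESCC mice at most 52.1, and the Krt5-dominant cells of EoE are too few to give a level.

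The cells of untreated epithelium that hold Defb4 were compared with the other cells of the same mouse. In the 4 control mice with at least 5 carriers (55 carriers at 500 UMIs), differentiation markers took 14.7% of the UMIs of carriers against 4.99% in other cells, a difference of 9.72 points ± 2.44 (SD, n = 4 mice). Superficial markers took 5.01% against 0.259%, basal markers 0.352% against 1.66% and cycling markers 0.00882% against 0.164%. Each of these differences had the same direction in 4 of 4 mice. The two-sided exact permutation p was 0.125 for each, the smallest that 4 mice allow (adjusted p 0.15 over 6 lists), so this design could not have passed the threshold of 0.05 and the values are a description. In EoE mouse 10, the carriers gave 14.2% to differentiation markers against 11.9% and 3.75% to superficial markers against 1.31%.

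Age did not enter the choice of the genes, so old and young controls were compared by a test. In edgeR's quasi-likelihood test, 0 of 6488 genes passed an adjusted p of 0.05 (0%), with 292 at an unadjusted p under 0.05 and 1 called by DESeq2. Chil4 averaged 37.5 CPM ± 20.1 in young controls and 14.2 ± 3.69 in old controls (SD, n = 3 each), a log2 difference of -1.32 (SE 0.60, p 0.0386 and adjusted p 1 in edgeR). Defb4 averaged 201 ± 169 CPM in young and 124 ± 118 CPM in old controls, with a log2 difference of -0.46 (SE 0.53, adjusted p 1 in edgeR) that became 0.070 without control mouse 6. Neither passed the threshold. S100a8, S100a9 and Lcn2 had 0 to 2 UMIs in controls and could not be compared by age.

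Other genes of these families and pathways came from 7 lists of 114 genes, of which 106 were in the tables and 37 could be tested. The filter on low counts of the ESCC and EoE fit left out S100a8, S100a9 and Lcn2 themselves. A related gene high in 17F and 17M alone could thus have been left out as well. In ESCC 9 of the 37 were higher and 9 lower, with a median log2 difference of -0.14 against 0.01 over all genes. Of the 12 calcium-binding S100 relatives in the tables, 5 were tested, with 1 higher and 3 lower. Whether the others followed S100a8 and S100a9 was not tested. S100a11 rose from 152 to 324 CPM in controls to 1015 to 1070 CPM in ESCC, 8M included (log2 difference 2.61, SE 0.20, adjusted p 3.35e-12 in edgeR). S100a14 (-1.06), S100a16 (-0.82) and S100a10 (-0.77) fell, of which S100a16 and S100a10 lost the call without ESCC mouse 17M (adjusted p 0.0569 and 0.0519 in edgeR) and S100a16 also without 17F or control mouse 6.

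Of the cytokine and nuclear alarmins, 3 of 6 were higher in ESCC and 1 lower. Il1f9, which encodes the epithelial cytokine IL-36 gamma, rose to 137 to 143 CPM from 9.01 to 59.8 CPM (2.48, SE 0.27, adjusted p 9.11e-09 in edgeR). Hmgb1, a nuclear protein released by dying cells, rose by 1.18, and Nampt by 1.04. Il33, the alarmin of type 2 inflammation, fell by 2.65, with an adjusted p of 0.0502 in DESeq2. Of 23 antimicrobial genes in the tables, 8 were tested and none of these was called higher. The 3 called lower were the peptidoglycan sensor Pglyrp4 (-2.39), the protease inhibitor Slpi (-1.54) and Wfdc2 (64.1 to 164 CPM against 171 to 504). The Slpi call was lost without any of 6 mice in turn (ESCC 17F or 17M, or control 1, 4, 5 or 6) and became 0.11 in Krtdap-dominant cells. The chitinase Chit1 rose by 1.47 on the log2 scale, alongside its relative Chil4.

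Among receptors, the adhesion protein Alcam fell by 2.22. Nptn, known as a calprotectin receptor, was called at 0.48, a call lost in 16 of 21 alternatives, among them those that left out any of the mice but control mouse 1. In the IL-17, IL-22 and NF-kB list 3 of 11 were higher and 0 lower. Zc3h12a, an RNase that these cytokines induce, rose by 2.16 (SE 0.29, adjusted p 6.68e-07 in edgeR). The NF-kB feedback genes Nfkbia (0.87) and Nfkbiz (0.70) were called as well, but not without 17F (adjusted p 0.0868 and 0.0952 in edgeR) or 17M (0.0859 and 0.0768), and Nfkbiz not without control mouse 1 (0.0539). In the IL-4 and IL-13 list Cish fell by 2.39, and 0 of 3 were called higher.

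In EoE, 7 of the 37 were higher and 10 lower, with a median of -0.72 against -0.75 over all genes. Of the antimicrobial list, which holds other proteins with a role like that of Defb4, 2 of 8 were higher and 2 lower. Slpi, which protects epithelium from proteases, stood at 1614 to 5148 CPM in EoE and at 0 to 1039 in controls (2.71, adjusted p 0.000220 in edgeR, 0.0560 in DESeq2), and Duox1, which makes hydrogen peroxide, was called at 0.91. The Duox1 call was lost without any of EoE mice 9, 10 and 12 or control mice 1, 2, 3 and 6. Wfdc2 and Rnase4 each had 1 UMI in EoE, and the control level was 21.8 (3.90 to 865) and 11.0 (1.95 to 437) times as high.

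Of the S100 relatives, 2 of 5 were higher in EoE and 3 lower. S100a10 (-4.62), S100a11 and S100a6 (-2.93) fell, S100a11 from 152 to 324 CPM to 2 UMIs, a control level 9.18 times as high (2.52 to 76.1). S100a16 rose by 1.12. Il33 rose by 2.79 (adjusted p 8.65e-05 in edgeR), at 0 to 801 CPM against 0 to 91.9, with 1 of 4 EoE mice at 0. Il1f9 was called at 1.78 but not without mouse 10 or 9 (adjusted p 0.395 and 0.0723 in edgeR). Anxa1 fell by 1.71. Of the signal genes Stat3 rose by 1.03 and Socs3 fell by 1.50, and Stat6 had 3 UMIs, with control 2.92 times as high (0.981 to 14.3), a call lost without any EoE mouse or control mouse 2 or 6. The receptors Nptn, with 1 UMI, and Bsg (-1.47) were called lower, the control level of Nptn being 10.1 times as high (1.78 to 399), and the Bsg call was lost without EoE mouse 10 or 12 (adjusted p 0.124 and 0.0762 in edgeR). Between old and young controls, 0 of 43 genes of these lists were called by edgeR, where 0% of all genes were.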

How the data were processed

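Epithelial cells of 13 mice (22 inDrop libraries) were read from the deposited UMI counts, whole numbers per gene and cell without normalization. By the submitters' processing notes and the methods, the authors used UMI-tools 1.0.0, STAR 2.7.3 and featureCounts on GRCm38 and deposited 1500 cells per condition. Mice were the replicates, grouped by the labels. Cells with 250 to 3500 genes and 100 to 9500 UMIs were used, without those called non-epithelial (7 control, 1 EoE and 21 ESCC cells). Such a cell held at least 3 UMIs of non-epithelial markers and more of these than of epithelial markers. Cells with immune marker UMIs but at least as many epithelial marker UMIs were therefore kept. UMIs were summed per mouse, so depth sets the precision. Genes were tested in R 4.3.3 with edgeR 4.0.16, after TMM scaling and the filterByExpr filter, by its quasi-likelihood test, with p adjusted by Benjamini-Hochberg over all genes tested and 13 mice in 3 groups, or 5 groups by age. DESeq2 1.42.0 was an alternative. Cells were clustered in Python 3.11.15 with scanpy 1.11.5 and leidenalg 0.10.2 (2000 variable genes, 50 components, 15 neighbors). Scrublet marked 205 of 4500 cells as doublets, which were kept except in an alternative. On simulated data with 200 changed genes, edgeR recovered 189 of 189 tested at the depth of ESCC and control, with 8 false calls, and 97 of 189 (51.3%) at that of EoE and control, with 13.

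The genes, lists and tests were chosen with earlier results of these data known. Related genes past the threshold were named up to 4 per list and contrast by absolute log2 difference, and the 5 genes most alike by the mean r over the ESCC mice of log2(1 + UMIs per 10000), among genes in at least 5% of the cells of each mouse. Any other gene is named after its values were seen. Shares of cells carry 95% Wilson intervals and pooled levels exact counting intervals. Alternatives covered the cells, doublets, libraries, filter, normalization, fit, thinning, clustering and each mouse left out. Sequences came from RefSeq (GRCm38.p6), where 4 of 5 genes matched, and positions from GENCODE M21. A copy was a gene sharing at least 10% of the 31-base sequences of the last 300 transcript bases. Sequencing batches are not given in the sources used here.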

Additional observations from a re-analysis of the deposited data

Results flagged for a closer look

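In groups of 4 to 10 mice, a level was set apart when its gap to the nearest mouse, as a share of the range of the group, passed Dixon's 95% critical value. This held in 10 of 58 groups. For values without ties chance sets apart about 1 in 20, a rate that does not apply to 8 of the 10, where 1 mouse held 1 to 3 UMIs and the others 0. For S100a8, control mouse 1 (2.48 CPM, 1 UMI) stood apart from 5 controls at 0, and for S100a9 control mouse 6 did (6.30 CPM, 2 UMIs). Both are the UMIs on which the ratios of these genes to control rest. Of the related genes, 6 stood apart in EoE because a single mouse held 1 to 3 UMIs and the other 3 held 0. These were Hmgb1 (47.7 CPM), Nampt (71.6 CPM), Pglyrp4 and Wfdc2 (23.9 CPM each) in mouse 10, and Nptn and Rnase4 (31.4 CPM each) in mouse 9. Stat3 was at 1601 CPM in EoE mouse 11, from 10 UMIs, with the others at 668 to 779 CPM. Wfdc2 was at 504 CPM in control mouse 3, with the others at 171 to 280 CPM. EoE mouse 11 and control mouse 3 had the fewest cells of their groups.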

How the results depend on the processing

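The EoE mice held 6245 to 41909 UMIs each, which limits every EoE value, and 8M separates the ESCC mice. Alternatives on shared barcodes, single libraries, doublets and Krtdap-dominant cells were chosen after seeing the data. No paired analysis was possible because the labels give the groups no shared replicate numbers. Of the alternative values of the main comparisons, 192 kept direction and moved by less than the spread between mice or, for counts, by less than 1.5 times, 5 moved further and 3 changed sign. The spread of S100a8, S100a9 and Lcn2 between ESCC mice is wide, so their ratios vary severalfold within it. The related genes called in ESCC were 18, and 41 without a filter on low counts. Those called in EoE were 17, and 11 in Krtdap-dominant cells. In the latter cells the log2 difference of Chil4 was 5.47 in ESCC and -0.0275 in EoE, and that of Defb4 -2.97 in ESCC. Chil4 in EoE was -2.45 with age classes in the groups and -0.0076 without EoE mouse 9, and could not be fitted with 2 groups alone. Defb4 in EoE was 1.52 with all deposited cells. Leaving out each mouse, ESCC related calls were 12 to 20 and EoE 13 to 18, Chil4 3.85 to 4.45 in ESCC and -0.0076 to 1.17 in EoE, and Defb4 -4.55 to -3.85 and 2.29 to 2.90. Pooled ratios were 550 to 2826 (S100a8), 543 to 1315 (S100a9) and 22.6 to 43.6 (Lcn2, a bound, 7.51 in Krtdap-dominant cells and 17.6 from library 1). Signs changed for Slpi in ESCC (0.11, Krtdap-dominant cells), Socs3 in EoE (0.26, all deposited cells), Defb4 by age (0.0100 without cells with an immune UMI, 0.070 without control mouse 6, -1.22 to 0.070 over mice left out) and the keratinizing share of Defb4 carriers (0.0101 points at 1000 UMIs). Over all genes, ESCC calls were 778 in Krtdap-dominant cells and 1188 from library 1, and EoE calls 1093 and, without EoE mouse 10, 1149. The age contrast gave 18 calls without a filter. In Krtdap-dominant cells the calls of S100a16, Rnase4, Socs3, Bsg, Duox1 and Il1f9 in EoE and of S100a16, Pglyrp4, Nfkbia, Nptn and Slpi in ESCC ended. Of the shares of cells with a UMI, 46 stayed within the spread between mice at another depth or without doublets and 14 did not, among them Defb4 in EoE (73.9% at 1000 UMIs). A search for 4 clusters reached 3. In these, in 7 clusters and with library means removed, the cluster highest in S100a8 and S100a9 was at 2.14 to 3.98 times the level of all cells. It was led by Serpinb12 and Slpi in the first and last of these and by H2-Aa and Cd74, as in the 5 clusters, with 7. Other causes were not tested.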

Other observations

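The 1356 EoE cells outside the limits on genes and UMIs entered comparisons only in the alternative with all deposited cells. They held 11 Defb4 UMIs (55.3 CPM) and 3 Chil4 UMIs (15.1 CPM), and 0 of S100a8, S100a9 and Lcn2. Their Defb4 level was below that of each EoE mouse in the cells used.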
